A study of Mus musculus with 18 samples.

Results

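The 10 genes described here, Cdkn1a, Mdm2, Ccng1, Sesn2, Phlda3, Trp53inp1, Bbc3, Bax, Aen and Perp, are known targets of the transcription factor p53. They were taken by gene name from a count table of 55385 genes and were followed through 18 RNA-seq libraries of mouse gastruloids. Each name matched 1 gene identifier, and 10 of 10 were among the 16041 genes with enough counts to be tested. Their levels were not used to choose them from the table, although earlier results of these data were known when the list was drawn up.

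Gastruloids are aggregates of embryonic stem cells that break symmetry and form germ-layer derivatives in culture. All libraries came from wild-type cells of the strain 129/SVEV, with no transgene named, and each library was made from polyA RNA of gastruloids pooled in a tube. The agent varied was CHIR, which blocks the kinase GSK3 and so turns on Wnt/β-catenin signalling. It was added as a pulse between 48 and 72 h after aggregation (control arm) or between 24 and 48 h (early arm), and the comparison asks how the timing of the pulse changes the transcriptome. The 6 groups, with 3 libraries each, were the control arm at 48 h, which had not yet been treated, the control arm at 72 h, at the end of its pulse, and at 96 h, 1 day later, and the early arm at 48 h, at the end of its pulse, at 72 h, 1 day later, and at 96 h, 2 days later. Whether the 3 libraries of a group are separate cultures is not in the labels. The p-values therefore speak to the spread among these libraries alone, which may be technical.

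The p53 protein is held low in unstressed cells by the ubiquitin ligase Mdm2, and DNA damage or other stress stabilises it. Stabilised p53 binds paired copies of a short palindromic element and activates genes that stop the cell cycle, repair DNA, limit growth signalling or start apoptosis, together with Mdm2 itself, which closes a negative feedback loop. Several of these genes also answer to other regulators, among them Cdkn1a to developmental and differentiation signals and Sesn2 to the transcription factor Atf4 of the integrated stress response.

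Promoter sequences are shown for 4 genes: Cdkn1a and Ccng1, which held the closest matches to the p53 element, and the cell-death genes Bbc3 and Bax, so that they can be read beside the values. RefSeq windows (GRCm38.p6; 250 bases before to 50 after a start) were found for 8 of the 10 genes, with 12 windows in all. Trp53inp1 and Perp were not among them. Each window was scanned for the best ungapped match to 2 adjacent copies of the p53 half-site consensus, 20 bases in all. The consensus is its own reverse complement, so 1 scan reads both strands. The 250 bases before the start are printed 5′ to 3′ on the gene's strand, with the best match in capitals.
Cdkn1a, upstream start, chr17:29090729-29090978, + strand: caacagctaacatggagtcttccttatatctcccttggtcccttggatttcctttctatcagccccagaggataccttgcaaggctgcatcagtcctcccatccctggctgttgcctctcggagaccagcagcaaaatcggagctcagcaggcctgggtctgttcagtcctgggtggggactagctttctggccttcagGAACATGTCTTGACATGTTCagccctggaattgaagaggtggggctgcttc
Ccng1, chr11:40755287-40755536, - strand: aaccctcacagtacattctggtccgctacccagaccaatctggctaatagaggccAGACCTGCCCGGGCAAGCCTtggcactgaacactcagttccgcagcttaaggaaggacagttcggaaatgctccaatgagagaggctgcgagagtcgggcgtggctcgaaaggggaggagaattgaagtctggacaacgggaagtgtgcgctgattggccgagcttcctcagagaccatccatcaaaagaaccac
Bbc3, chr7:16309333-16309582, + strand: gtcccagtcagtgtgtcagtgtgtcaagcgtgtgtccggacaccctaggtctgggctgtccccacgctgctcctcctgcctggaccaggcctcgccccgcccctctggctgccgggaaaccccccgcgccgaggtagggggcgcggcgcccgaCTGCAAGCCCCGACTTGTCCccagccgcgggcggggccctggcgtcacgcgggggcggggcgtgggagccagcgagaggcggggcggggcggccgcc
Bax, chr7:45466899-45467148, - strand: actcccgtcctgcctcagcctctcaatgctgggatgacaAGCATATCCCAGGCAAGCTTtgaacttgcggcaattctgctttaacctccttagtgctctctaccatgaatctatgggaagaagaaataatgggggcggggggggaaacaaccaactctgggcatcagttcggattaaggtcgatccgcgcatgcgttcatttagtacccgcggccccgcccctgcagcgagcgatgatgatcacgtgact
The upstream Cdkn1a window held a match with 1 mismatch at chr17:29090928-29090947. It lay 51 to 32 bases before that start and began 2841 bases before the downstream Cdkn1a start. Ccng1 also had 1 mismatch, 195 to 176 bases before its start. Such close matches were present in 0.0883% of all 32851 windows of this length. The printed Bbc3 window, that of Bax and both of Aen had 3 mismatches, and 6.29% of all windows had 3 or fewer. The windows of Mdm2, Sesn2 and Phlda3 and the downstream Cdkn1a window had 5, and the other Bbc3 windows had 5 and 6. The letters CTTTGAT, a form of the Tcf/Lef motif through which β-catenin acts, were in 0 of the 12 windows, against 3.73% of all windows (both strands searched). The letters TGATGNAA, a form of the motif of Atf4 with its partners, were also in 0 of 12, against 3.97%. With 12 windows, some of them overlapping, a count of 0 is likely at such shares. It therefore shows no lack of either motif at these genes. The p53 matches describe the windows scanned and say nothing of binding in these cells.

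Total counts ranged from 14841728 to 24536538 per library. Unless stated, levels are CPM, counts relative to a library size adjusted with TMM, and changes are log2 fold changes ± SE from 1 edgeR quasi-likelihood fit over all libraries, with n = 3 libraries per group. A gene was called at a Benjamini-Hochberg adjusted p under 0.05 over all 16041 genes. Markers of stem cells and of the primitive streak were detected as the gastruloid label has it. Pou5f1, a pluripotency factor, had 1210.3 to 1278 CPM in untreated gastruloids and 154 to 474 CPM in the controls of 96 h. T, a marker of the streak, rose from 0.713, 0.297 and 0.769 CPM in untreated gastruloids to 1008, 1263 and 872 CPM at the end of the control pulse. In the early arm T had 39.2, 37.2 and 45.4 CPM at the end of the pulse and 21.9 to 26.9 CPM at 72 h. At 96 h it had 478 to 641 CPM there and 473 to 747 CPM in the controls. Pou5f1 was still at 1274 to 1326 CPM in the early libraries of 96 h. The arms thus differed in T at 48 and 72 h and in Pou5f1 at 96 h, and not in these alone. Of 6 identity markers, Pou5f1 and T included, 3 were higher and 0 lower in the early arm at 48 h. At 72 h 1 was higher and 3 lower, and at 96 h 2 were higher and 2 lower. Over all tested genes 23.0%, 21.7% and 29.5% were higher and 20.7%, 23.2% and 29.6% lower. The log2 fold changes of the 6 at 96 h ran from -7.51 to 3.91. The part of such differences in the 10 genes was not tested. The control libraries numbered 3 stood apart from their groups, with counts that differed from the others of their group by 15.4 to 28.1 in chi-square divided by its degrees of freedom. All other replicate pairs had 1.41 to 7.90. Of 7 fibroblast and feeder markers, Lum had 0 counts in every library, and the summed level of the list was 24.0 to 29.2 CPM in the untreated gastruloids, 7.35 to 10.3 CPM in the early ones of 48 h and 15.5 to 39.3 CPM in the controls of 96 h. In these bulk libraries, fewer cells of a type and less RNA per cell cannot be told apart.

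Per transcript length, Bax was the most abundant of the 10 on average over the 6 groups, at 182 FPKM, followed by Cdkn1a at 101 and Ccng1 at 100.1 FPKM. Perp was the least abundant, at 5.73 FPKM. The range over groups also differed between the genes. The highest group mean in FPKM was 8.35 times the lowest for Cdkn1a, 5.10 times for Perp and 3.59 times for Sesn2, against 1.14 times for Aen. Cdkn1a moved from the 7th place of the 10 in untreated gastruloids, at 23.9 ± 0.419 (SD) FPKM, to the 1st at the end of the control pulse, at 199.8 ± 14.6 (SD) FPKM, where it stood above Bax at 162 ± 8.34 (SD) FPKM.

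**Figure D1:**
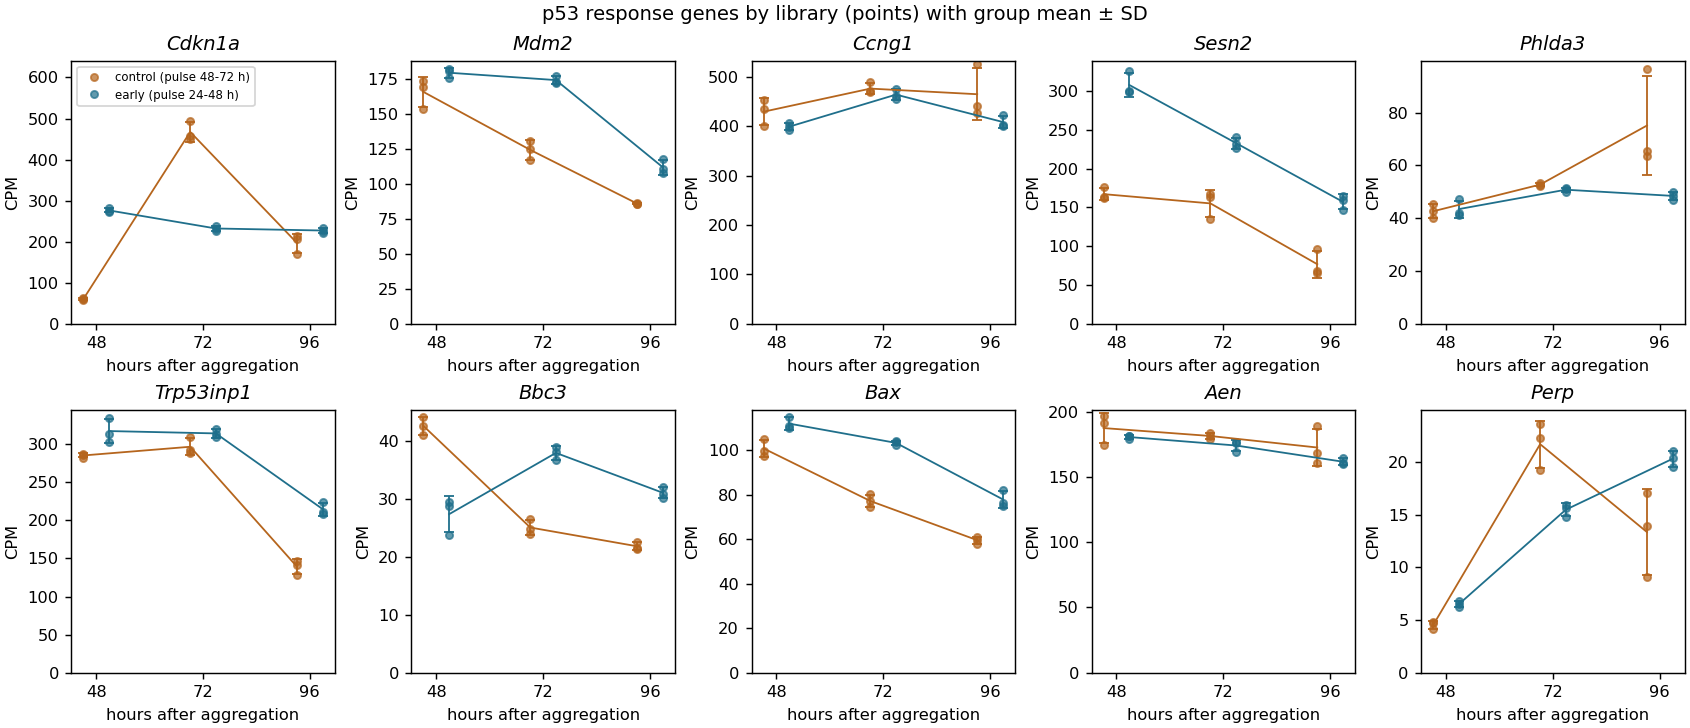
CPM of the 10 p53 response genes (y axis, from 0) against hours after aggregation (x axis); points are libraries, lines join group means and bars are SD (n = 3). Cdkn1a reaches 450.2 to 494 CPM in the controls of 72 h from 58.4 to 61.3 CPM in untreated gastruloids, whereas the Mdm2 and Bax levels of the control arm fall with age.

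Gene positions are from GENCODE M21 on the mm10 build, and all 10 genes and Trp53 are protein coding. Cdkn1a (ENSMUSG00000023067.14, chr17:29090976-29100727, + strand) encodes p21, an inhibitor of cyclin-dependent kinases. It had 61.3, 60.1 and 58.4 CPM in the 3 untreated libraries, and 272, 281 and 275 CPM at the same age at the end of the early pulse. In the control arm it reached 450.2, 458 and 494 CPM at the end of the pulse and was at 214, 206 and 169.9 CPM a day later. Every library that had received CHIR was above the untreated ones, without overlap, and the controls of 72 h stood above all other groups. After the early pulse it had 226, 238 and 231 CPM at 72 h, below the early libraries of 48 h, and 234, 221 and 226 CPM at 96 h, which overlapped those of 72 h. The rise over untreated gastruloids was 4.60-fold at the end of the early pulse (log2 fold change 2.20 ± 0.066, adjusted p = 2.63e-14) and 7.79-fold at the end of the control pulse (2.96 ± 0.067, adjusted p = 2.99e-16). Ranked by log2 fold change, these were the 300th and the 288th highest of 16041 genes. The control comparison also spans a day of age, so pulse and age cannot be told apart in it.

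The step after the pulse differed between the arms. In the controls Cdkn1a fell by 1.25 ± 0.062 on the log2 scale between 72 and 96 h (adjusted p = 1.48e-11), and in the early arm it fell by 0.25 ± 0.061 between 48 and 72 h (adjusted p = 0.00316), a call that was lost on FPKM (adjusted p = 0.0935). The difference between these steps was 1.00 ± 0.087 (adjusted p = 4.89e-08). At equal age the order of the arms reversed with time: early gastruloids were higher at 48 h, lower at 72 h (-1.01 ± 0.062, adjusted p = 5.44e-10) and slightly higher at 96 h (0.21 ± 0.062, adjusted p = 0.0077). The last difference was 0.12 without control replicate 3 (adjusted p = 0.0286), and its call was lost when only the groups compared were fitted (adjusted p = 0.0602). Another gene overlaps Cdkn1a on the opposite strand, with a mean of 0.0562 CPM, far below it.

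Of 5 other CDK inhibitors, 1 was called at the end of the control pulse: Cdkn2d, which encodes p19-Ink4d, rose by 0.44 ± 0.14 (adjusted p = 0.01). Over all tested genes 31.1% were higher and 30.3% lower in that comparison. Their log2 fold changes at the end of the early pulse ran from -0.18 to 0.23. The summed level of the 5 was 87.6 to 89.7 CPM untreated and 86.3 to 94.6 CPM at the end of the control pulse, ranges that overlap. One day after the pulse the control arm had more Cdkn1c (p57), which rose by 1.29 ± 0.18 (adjusted p = 6.49e-06), over the interval in which Cdkn1a fell. In the same step Cdkn2b (p15-Ink4b) and Cdkn1b (p27) were lower, with -1.02 ± 0.25 and -0.27 ± 0.075 (adjusted p = 0.00235 and 0.00493), and the other 2 were not called. Over all tested genes 27.5% were higher and 27.4% lower in this step.

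Mdm2 (ENSMUSG00000020184.15, chr10:117688875-117710758, - strand), the ubiquitin ligase that degrades p53, did not follow Cdkn1a. The untreated libraries had 174, 169 and 154 CPM and the early ones of 48 h had 180.2, 175 and 182 CPM. The early libraries were all above the untreated ones, but the difference of 0.11 ± 0.049 did not pass the test (adjusted p = 0.0705), except with control replicate 1 of 48 h left out (adjusted p = 0.0398). In the control arm Mdm2 was at 125, 117 and 131 CPM at the end of the pulse and at 86.2, 85.8 and 85.3 CPM a day later, falling in both steps without overlap. The log2 fold changes were -0.42 ± 0.050 (adjusted p = 8.88e-07) and -0.53 ± 0.051 (adjusted p = 7.75e-08). The early arm kept 173, 172 and 177 CPM at 72 h and had 118, 107 and 110.2 CPM at 96 h, a change of -0.64 ± 0.050 that came a day after the pulse had ended (adjusted p = 6.84e-08). Early libraries were above control libraries at 72 h by 0.49 ± 0.050 and at 96 h by 0.38 ± 0.051 (adjusted p = 3.71e-07 and 3.89e-06).

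Ccng1 (ENSMUSG00000020326.7, chr11:40748552-40755311, - strand), which encodes cyclin G1, a partner of the phosphatase PP2A that acts on Mdm2, stayed within a narrow range. Its promoter and that of Cdkn1a held the closest p53 matches of those scanned. Its group means ran from 399 ± 7.07 (SD) CPM in the early libraries of 48 h to 476 ± 10.8 (SD) CPM in the controls of 72 h. In the order of the levels the 3 highest groups overlapped as neighbours, as did the 3 lowest. It rose by 0.22 ± 0.060 in the early arm between 48 and 72 h (adjusted p = 0.00736), a call that stayed without each single library left out. The call of a rise at the end of the control pulse (0.15 ± 0.060, adjusted p = 0.04) was lost without control replicate 2 or 3 of 48 h or any control library of 72 h, with adjusted p of 0.0645 to 0.19. At 96 h the controls had 441, 428 and 525 CPM and the early libraries 401, 403 and 422 CPM. The difference of -0.19 ± 0.060 (adjusted p = 0.0133) was lost without control replicate 3, where it was -0.082 (adjusted p = 0.144). It was also lost without early replicate 1 or 2 (adjusted p = 0.0502 and 0.0547).

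The mRNA of p53 itself, Trp53 (ENSMUSG00000059552.13, chr11:69580359-69591873, + strand), was higher in the early arm at every age. It had 315, 317 and 313 CPM untreated and 416, 401 and 429.8 CPM at the end of the early pulse, a rise of 0.40 ± 0.045 (adjusted p = 9.08e-07). The end of the control pulse, with 302, 286 and 319 CPM, did not differ by the test from untreated gastruloids (-0.060 ± 0.045, adjusted p = 0.261). Early libraries were above control libraries without overlap at 72 h by 0.28 ± 0.045 and at 96 h by 0.30 ± 0.045 (adjusted p = 7.41e-05 and 1.29e-05). The libraries measure mRNA and hold no measure of p53 protein, its phosphorylation or its binding.

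Among 14 tested regulators of p53 other than the 10 genes, Trp53 included, 4 were higher and 4 lower at the end of the early pulse, against 23.0% and 20.7% of all tested genes. Chek2, a DNA-damage kinase, rose by 0.34 ± 0.043, Mdm4, an Mdm2 relative that restrains p53, rose by 0.41 ± 0.066, and Trp53bp1, a DNA-break adaptor, fell by 0.75 ± 0.055 on the log2 scale (adjusted p = 4.70e-06, 5.55e-05 and 3.01e-09). Of the 14, 9 were lower at the end of the control pulse, against 30.3% of all tested genes, among them Trp53bp1 with -1.29 ± 0.056 and Usp7, a deubiquitinase of Mdm2 and p53, with -0.46 ± 0.040 (adjusted p = 1.05e-12 and 1.41e-08). The median of the 14 was -0.30, against 0.013 over all tested genes.

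Bbc3 (ENSMUSG00000002083.13, chr7:16308393-16318205, + strand) encodes Puma, a BH3-only protein that promotes apoptosis, and it fell while Cdkn1a rose. It had 44.2, 42.6 and 41.1 CPM in untreated gastruloids, 28.8, 23.8 and 29.6 CPM at the end of the early pulse and 23.9, 24.9 and 26.5 CPM at the end of the control pulse. Both pulse-end groups were below every untreated library and overlapped each other. The log2 fold changes were -0.64 ± 0.071 (adjusted p = 7.59e-07) and -0.77 ± 0.071 (adjusted p = 3.38e-08). One day later the early arm had 36.8, 39.0 and 38.1 CPM, a rise of 0.47 ± 0.071 (adjusted p = 4.18e-05), whereas the controls had 21.5, 21.4 and 22.6 CPM. The change in the controls, -0.20 ± 0.074 with adjusted p = 0.0287, was lost without control replicate 2 or 3 of 72 h or replicate 1 or 2 of 96 h (adjusted p 0.0542 to 0.103). It was also lost with DESeq2, on both FPKM scales, with no filter, with only the groups compared and without the 3 control libraries numbered 3 (adjusted p 0.0545 to 0.0979).

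Bax (ENSMUSG00000003873.11, chr7:45461697-45466898, - strand), the pore-forming effector of mitochondrial apoptosis, was close to Mdm2 in its course. The control arm had 99.8, 97.5 and 105 CPM at 48 h, 76.9, 74.4 and 80.1 CPM at 72 h and 61.1, 57.8 and 59.7 CPM at 96 h. Each step was a fall without overlap, with -0.39 ± 0.046 and -0.37 ± 0.047 (adjusted p = 8.15e-07 and 2.24e-06). The early arm had 111, 109.9 and 115 CPM at 48 h, 104, 104 and 102 CPM at 72 h and 76.3, 75.0 and 82.2 CPM at 96 h. Its excess over the controls was 0.42 ± 0.046 at 72 h and 0.39 ± 0.047 at 96 h (adjusted p = 7.71e-07 and 1.15e-06). The excess at 48 h of 0.15 ± 0.045 (adjusted p = 0.0108) was lost without control replicate 2 (adjusted p = 0.0579), without early replicate 3 (adjusted p = 0.0521) and on FPKM (adjusted p = 0.138). A gene model on the same strand that overlaps Bax had 0 CPM in every library.

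Aen (ENSMUSG00000030609.18, chr7:78895854-78911209, + strand), an apoptosis-enhancing nuclease, did not pass the edgeR test in any of the 10 comparisons, nor at an unadjusted p under 0.05. Its group means lay between 162 ± 2.55 (SD) CPM (early, 96 h) and 187 ± 11.7 (SD) CPM (untreated). All 18 libraries lay between 159.5 and 197 CPM. Its control step from 72 to 96 h, at -0.073 ± 0.052 (adjusted p = 0.242), passed with control replicate 3 of 96 h left out (-0.14, adjusted p = 0.0159) and on log2(FPKM + 1) (-0.19, adjusted p = 0.0145). Its difference between the arms at 96 h, at -0.093 ± 0.052, passed with control replicate 1 left out (-0.13, adjusted p = 0.0419). That at 48 h passed without the 3 control libraries numbered 3 (-0.11, adjusted p = 0.0212), as did the control step (-0.15, adjusted p = 0.00649). Between pulse ends Aen passed on log2(FPKM + 1) (-0.17, adjusted p = 0.024), and in the early step to 96 h with only the groups compared (-0.11, adjusted p = 0.0387).

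Perp (ENSMUSG00000019851.8, chr10:18845020-18857073, + strand) encodes a tetraspan membrane protein that p53 and p63 activate and that also belongs to desmosomes. It was lowest in untreated gastruloids, with 4.79, 4.11 and 4.74 CPM, and rose to 22.3, 19.2 and 23.6 CPM at the end of the control pulse, by 2.25 ± 0.16 (adjusted p = 1.41e-09). At the end of the early pulse it had 6.53, 6.20 and 6.81 CPM, all above untreated, with a difference of 0.52 ± 0.18 (adjusted p = 0.0254). That call was lost without control replicate 2 or early replicate 1 or 3 (adjusted p 0.0582 to 0.0962). In the early arm Perp rose a day after the pulse, to 15.7, 16.0 and 14.8 CPM, by 1.25 ± 0.16 (adjusted p = 7.40e-06), and it had 21.1, 20.4 and 19.5 CPM at 96 h. The controls of 96 h were scattered, with 17.1, 13.9 and 9.04 CPM, and were all below the controls of 72 h (-0.68 ± 0.15, adjusted p = 0.000646). Without the 3 control libraries numbered 3 this step was -0.40 (adjusted p = 0.00121).

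Other genes of the desmosome and of epithelia were followed in a list of 12. At the end of the control pulse 3 of the 12 rose, among them Dsp, which encodes desmoplakin, by 2.13 ± 0.10 (adjusted p = 5.16e-12), and 7 fell, among them Krt18, a keratin of simple epithelia, with -1.76 ± 0.14 and Jup, plakoglobin, with -0.93 ± 0.063 (adjusted p = 3.21e-09 and 4.92e-10). Over all tested genes 31.1% rose and 30.3% fell there. Of the 12, 9 fell at the end of the early pulse, against 20.7% of all tested genes, with a median of -0.64 against 0.017 over all tested genes. In the early arm from 48 to 72 h, 8 rose and 1 fell, against 20.7% and 21.9% of all tested genes. In the control step to 96 h, 3 rose and 7 fell, against 27.5% and 27.4%. Early against control, 5 were higher and 2 lower at 72 h, against 21.7% and 23.2%. At 96 h 8 were higher and 3 lower, against 29.5% and 29.6%. The list medians in these comparisons were 0.79, -0.38, 0.25 and 0.98, in that order. The summed level of the list was 1655 to 1828 CPM untreated, 1094 to 1144 CPM in the early libraries of 48 h and 1252 to 1315 CPM in the controls of 72 h, and its part in the level of Perp was not tested.

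Sesn2 (ENSMUSG00000028893.8, chr4:132492032-132510501, - strand), a stress-induced protein that restrains mTORC1 and senses leucine, separated the arms at every age. Untreated libraries had 176, 162 and 164 CPM and early libraries of 48 h had 299.9, 299 and 326 CPM, a rise of 0.88 ± 0.10 (adjusted p = 1.73e-06). It stood at 167, 163 and 135 CPM at the end of the control pulse, overlapping the untreated libraries. The difference there was -0.11 ± 0.11 (adjusted p = 0.397). It was at 68.1, 65.4 and 96.7 CPM in the controls of 96 h, and at 227, 241 and 232 CPM at 72 h and 160.2, 165 and 146 CPM at 96 h in the early arm. The control change of -1.02 ± 0.11 and the early change of -0.57 ± 0.10 from 72 to 96 h were called (adjusted p = 2.87e-07 and 0.000413), as was the early change of -0.40 ± 0.10 from 48 to 72 h (adjusted p = 0.0043), which was lost on log2(FPKM + 1) (adjusted p = 0.0817). The early excess was 0.59 ± 0.10 at 72 h and 1.04 ± 0.11 at 96 h (adjusted p = 0.000189 and 1.83e-07). An overlapping gene model on the same strand had a mean of 0.445 CPM.

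Genes of the Atf4 stress response, which also regulates Sesn2, were also mostly higher in the early arm. Of 9 Atf4 stress genes, 8 were higher in the early arm at 48, at 72 and at 96 h, with medians of 0.40, 0.42 and 0.62. Over all tested genes 23.0%, 21.7% and 29.5% were higher, with medians of 0.017, -0.021 and -0.0057. The gene not called was Slc7a11 at 48 h, a cystine transporter, at -0.42 ± 0.21 (adjusted p = 0.117), and Ddit3 (Chop) at 72 and 96 h, at -0.16 ± 0.22 and 0.37 ± 0.23 (adjusted p = 0.57 and 0.178). The name Ddit3 matched 2 gene identifiers, and the one with more counts was used. Asns, asparagine synthetase, rose by 1.07 ± 0.076 at the end of the early pulse, and Trib3, a pseudokinase target of Atf4, was higher by 1.31 ± 0.13 at 72 h and 2.87 ± 0.16 at 96 h (adjusted p = 2.01e-09, 2.42e-07 and 5.52e-11). The summed level of the list was 1127 to 1193 CPM in control and 1544 to 1569.7 CPM in early libraries at 48 h, 931 to 1053 against 1367 to 1375 CPM at 72 h, and 719 to 776 against 1117 to 1186 CPM at 96 h. The part of this list in the level of Sesn2 was not tested.

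Trp53inp1 (ENSMUSG00000028211.11, chr4:11156431-11174379, + strand), a p53-induced nuclear protein that also acts in autophagy, changed late. It had 287, 282 and 286 CPM untreated and 289, 292 and 309 CPM at the end of the control pulse, and then fell to 142, 147 and 128 CPM, with -1.09 ± 0.050 (adjusted p = 5.98e-12). The early arm had 314, 334 and 303 CPM at 48 h and 309, 320.4 and 313 CPM at 72 h, which overlapped, and 224, 211 and 209 CPM at 96 h, a change of -0.55 ± 0.050 (adjusted p = 3.29e-07). The early excess at 96 h was 0.63 ± 0.050 (adjusted p = 6.25e-09). The small excess at 48 h of 0.15 ± 0.049 (adjusted p = 0.0171) was lost without control replicate 2 (adjusted p = 0.0536), without early replicate 2 (adjusted p = 0.0997) and on FPKM (adjusted p = 0.174).

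Phlda3 (ENSMUSG00000041801.5, chr1:135766119-135769136, + strand), a PH-domain protein that competes with Akt for membrane lipids, was the gene of the 10 called higher in the controls of 96 h than in those of 72 h. It had 65.3, 63.4 and 96.8 CPM at 96 h, with replicate 3 far above the other libraries of its group, against 52.4, 52.3 and 53.5 CPM at 72 h. This was a rise of 0.51 ± 0.11 (adjusted p = 0.000754) that was 0.29 without replicate 3 of 96 h (adjusted p = 0.000342). Early libraries of 96 h had 50.1, 47.1 and 48.3 CPM, lower than the controls with -0.63 ± 0.11 (adjusted p = 8.35e-05). This difference was -0.40 without control replicate 3 (adjusted p = 7.63e-06). The rise at the end of the control pulse (0.31 ± 0.11, adjusted p = 0.0256) was lost without control replicate 2 or 3 of 48 h or any control library of 72 h, with adjusted p of 0.0528 to 0.089.

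At the end of the early pulse, 5 of the 10 genes were higher and 1 was lower than in untreated gastruloids of the same age. Over all tested genes 23.0% were called higher and 20.7% lower. The median of the 10 was 0.13, against 0.017 over all tested genes. The count rested partly on single libraries: 3 of the 6 calls, those of Cdkn1a, Sesn2 and Bbc3, stayed without each library in turn, and the count was 3 without control replicate 2 of 48 h and also on log2(FPKM + 1). The fibroblast and feeder list moved with this comparison, with 4 of 4 tested markers lower in the early libraries, and its part was not tested.

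At the end of the control pulse, 4 of the 10 were higher and 3 lower than in untreated gastruloids, against 31.1% and 30.3% of all tested genes. Cdkn1a and Perp rose, Mdm2, Bbc3 and Bax fell, and these 5 stayed called without each library in turn. Ccng1 and Phlda3 were the other calls. The median was 0.0042, against 0.013 over all tested genes. Of the same fibroblast and feeder list, 3 of 4 tested markers were lower, and its part was not tested. Both pulse ends were compared with the same 3 untreated libraries, so their values stand side by side without a test of agreement.

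**Figure D2:**
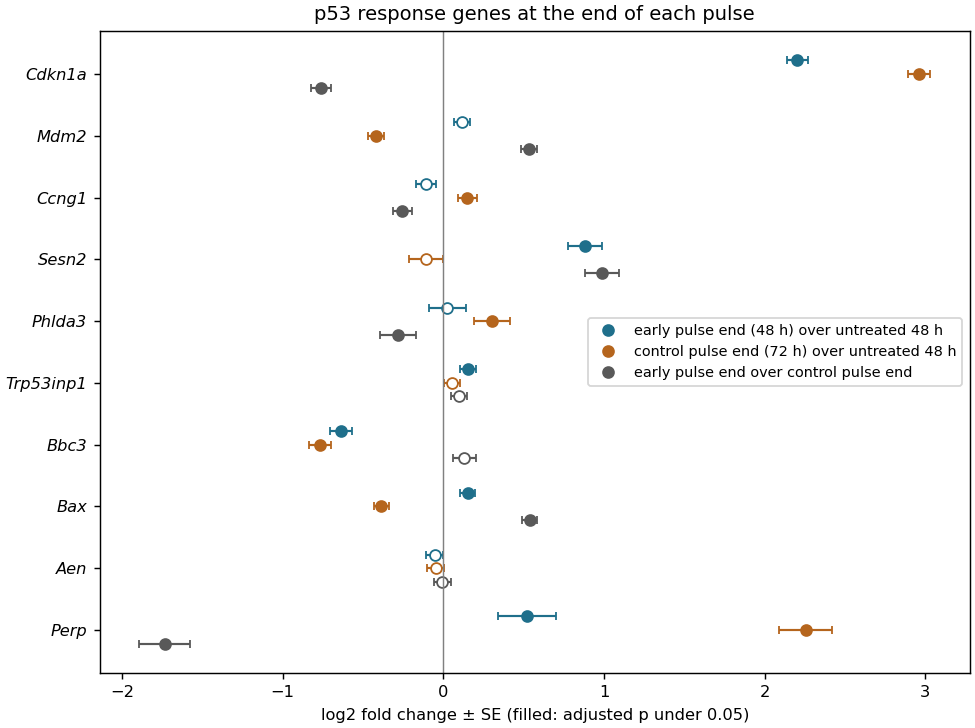
Log2 fold change ± SE (x axis) of the 10 genes (y axis) at the end of the early pulse and of the control pulse over untreated 48 h gastruloids, and of the early over the control pulse end; filled points passed the test. Cdkn1a lies at 2.20 and 2.96 in the first pair of comparisons and Bbc3 at -0.64 and -0.77.

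Set directly against each other, the pulse ends differed in 7 of the 10 genes, with 3 higher at the early pulse end and 4 lower, against 29.5% and 31.7% of all tested genes. This comparison sets 48 h against 72 h of age, which cannot be told apart from the timing of the pulse. Sesn2 was higher at the early pulse end by 0.99 ± 0.10, Bax by 0.54 ± 0.046 and Mdm2 by 0.53 ± 0.050 (adjusted p = 2.19e-07, 1.30e-08 and 4.58e-08). The lower genes were Perp with -1.73 ± 0.16, Cdkn1a with -0.76 ± 0.061 and Ccng1 with -0.26 ± 0.061 (adjusted p = 3.08e-08, 6.47e-09 and 0.00135). The call of Phlda3 (-0.28 ± 0.11, adjusted p = 0.0395) was lost without any control library of 72 h or early replicate 1 or 2, with adjusted p of 0.0668 to 0.125. Bbc3, not called here, became so without early replicate 2 (0.22, adjusted p = 0.00852).

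Over the day after the pulse most of the 10 genes fell in the control arm. In the controls 7 of the 10 fell and 1 rose between 72 and 96 h, against 27.4% and 27.5% of all tested genes, with a median of -0.45 against -0.010. In the early arm Ccng1, Bbc3 and Perp rose and Cdkn1a, Sesn2 and Bax fell between 48 and 72 h, against 20.7% and 21.9% of all tested genes, with a median of -0.029 against -0.0026. The fall of Bax in that step (-0.12 ± 0.045, adjusted p = 0.0455) was lost without each of the 6 libraries (adjusted p 0.0633 to 0.159) and was 0.0034 on log2(FPKM + 1). The calls of this step numbered 3 on FPKM, where those of Cdkn1a and Sesn2 were lost.

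The steps span 72 to 96 h in the controls and 48 to 72 h in the early arm, so arm and age cannot be told apart in their difference. Tested as that difference, early minus control, 8 of the 10 genes were called and each was higher, against 22.8% of all tested genes called higher and 21.7% lower. The difference was 1.93 ± 0.22 for Perp, 1.08 ± 0.070 for Trp53inp1 and 1.00 ± 0.087 for Cdkn1a, and between 0.25 and 0.67 for Ccng1, Bax, Mdm2, Sesn2 and Bbc3. Phlda3 (-0.28 ± 0.16, adjusted p = 0.161) and Aen (0.021 ± 0.073, adjusted p = 0.844) were not called. Phlda3 was called with no filter (-0.27, adjusted p = 0.0458) and with control replicate 2 of 96 h left out (-0.38, adjusted p = 0.0488). Aen was called on FPKM, with 0.29 and 0.28 (adjusted p = 0.0153 and 0.0148 for log2(FPKM + 0.1) and log2(FPKM + 1)). The call of Ccng1 was lost without control replicate 1 or 2 of 96 h (adjusted p = 0.0529 and 0.06). The median of the 10 was 0.55, against -0.0062 over all tested genes.

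**Figure D3:**
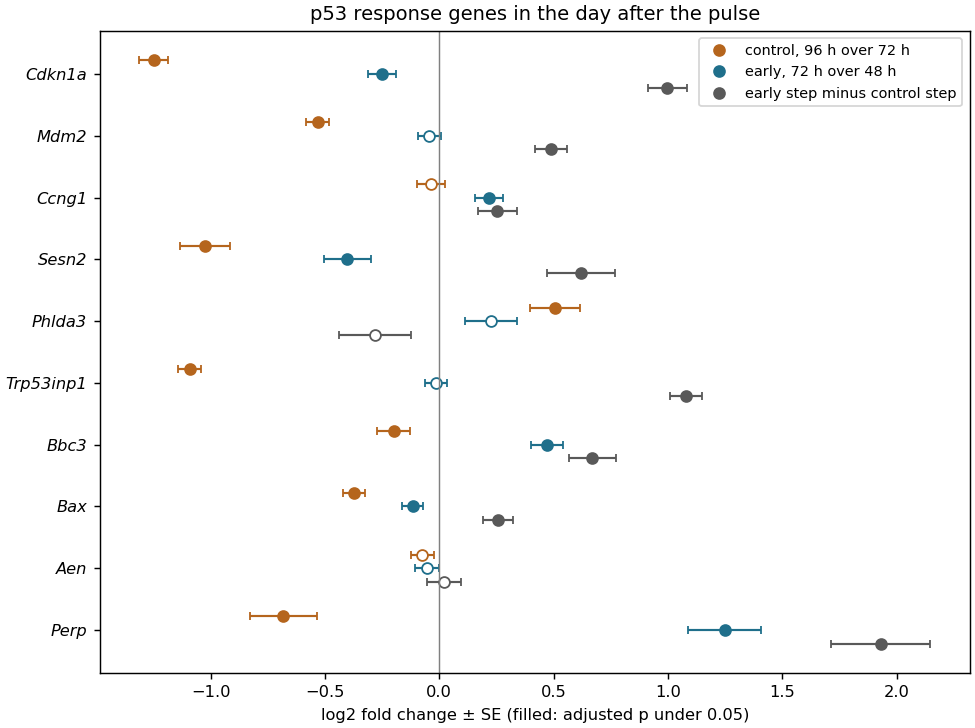
Log2 fold change ± SE (x axis) of the 10 genes (y axis) over the day after each pulse, in the control arm (96 over 72 h), the early arm (72 over 48 h) and as the difference of these steps; filled points passed the test. Trp53inp1 lies at -1.09 in the control arm and at -0.014 in the early arm.

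One day after each pulse, early gastruloids of 72 h were higher than controls of 96 h in 6 of the 10 genes and lower in 1, against 34.3% and 35.4% of all tested genes. Sesn2 was higher by 1.61 ± 0.11, Trp53inp1 by 1.17 ± 0.050 and Mdm2 by 1.02 ± 0.051 (adjusted p = 2.65e-10, 5.64e-13 and 3.95e-12). Cdkn1a was higher by only 0.24 ± 0.062 (adjusted p = 0.00213), and by 0.15 without control replicate 3 of 96 h (adjusted p = 0.00667). The lower gene was Phlda3, with -0.56 ± 0.11 (adjusted p = 0.000177), and with -0.34 without the same library (adjusted p = 4.40e-05). Perp was not called (0.20 ± 0.15, adjusted p = 0.241). Leaving out control replicate 1 of 96 h brought a call (0.43, adjusted p = 0.0101) and leaving out replicate 3 gave -0.0044.

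At equal age, 6 of the 10 genes differed between the arms at 72 h, with 4 higher and 2 lower in the early arm against 21.7% and 23.2% of all tested genes. All 6 stayed called without each library in turn. At 96 h, 9 of the 10 differed, with 7 higher and 2 lower, against 29.5% and 29.6%. The median of the 10 at 96 h was 0.38, against -0.0057 over all tested genes. The genes higher in the early arm at both ages were Mdm2, Sesn2, Bbc3 and Bax, while Cdkn1a and Perp, both lower at 72 h, were higher at 96 h. Perp was at -0.48 ± 0.14 and then 0.59 ± 0.15 (adjusted p = 0.0108 and 0.00197), the latter 0.39 without control replicate 3 of 96 h (adjusted p = 0.00196).

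**Figure D4:**
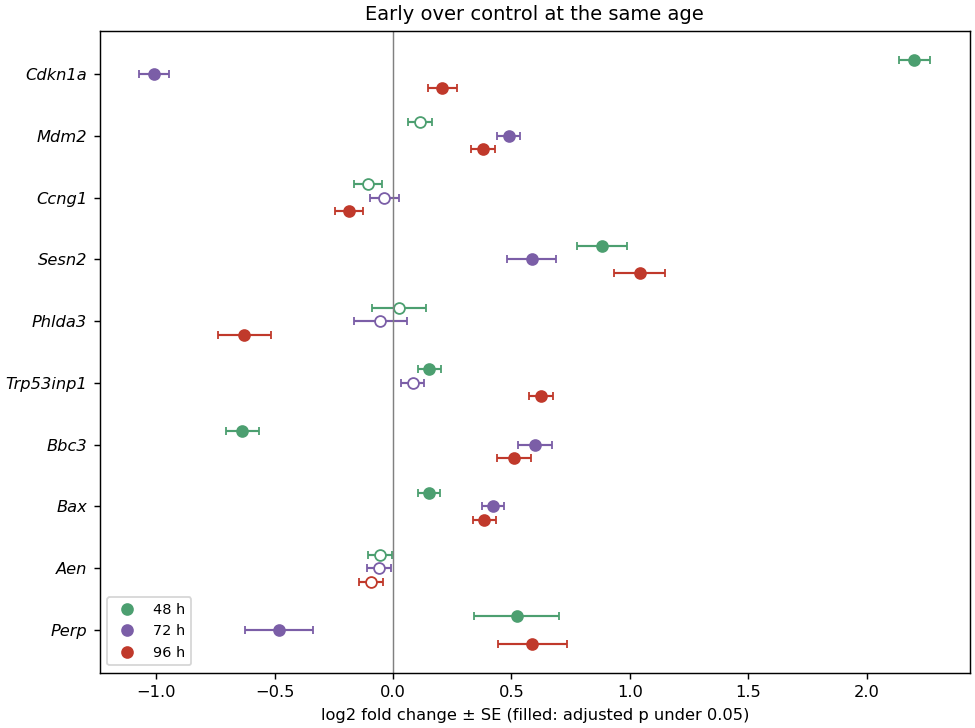
Log2 fold change ± SE (x axis) of early over control gastruloids at 48, 72 and 96 h for the 10 genes (y axis); filled points passed the test. Sesn2 lies right of 0 at each age, from 0.59 to 1.04, and Cdkn1a runs from 2.20 at 48 h to -1.01 at 72 h.

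Between 72 and 96 h, without CHIR in the medium, 6 of the 10 fell in the early arm and 1 rose, against 17.6% of all tested genes in each direction. The falls of Mdm2, Sesn2, Trp53inp1, Bbc3 and Bax stayed called without each library in turn and ranged from -0.64 (Mdm2) to -0.29 (Bbc3). The fall of Ccng1 (-0.18 ± 0.060, adjusted p = 0.0244) was lost without early replicate 1 or 2 of either age (adjusted p 0.0556 to 0.0838). The rise of Perp (0.39 ± 0.14, adjusted p = 0.0423) was lost without each of the 6 libraries (adjusted p 0.0692 to 0.117). The median of the 10 was -0.24, against 0.0079 over all tested genes.

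Other p53 targets were followed in 3 lists, which were written with earlier results of these data known. Of 9 targets of growth arrest, 4 rose and 2 fell at the end of the early pulse, against 23.0% and 20.7% of all tested genes, with a median of 0.14 against 0.017. Plk2, a polo-like kinase, rose by 0.46 ± 0.10 and Btg2, an antiproliferative cofactor, fell by 0.45 ± 0.078 on the log2 scale (adjusted p = 0.00113 and 0.000119). At the end of the control pulse 2 rose and 3 fell, against 31.1% and 30.3% of all tested genes, with Btg2 now higher by 0.27 ± 0.075 and Plk3 at -1.32 ± 0.14 (adjusted p = 0.00447 and 1.62e-07). In the difference of the steps after the pulse 5 of the 9 were higher, against 22.8% of all tested genes, led by Sfn, which encodes the p53-induced stratifin, with 2.41 ± 0.18 (adjusted p = 6.53e-09). The median difference of the list was 0.29, against -0.0062 over all tested genes. The other p53 lists did not share this excess. Of 12 targets of repair and metabolism 3 were higher and 2 lower in this difference, with a median of -0.049. Of 9 tested targets of cell death 3 were higher and 2 lower, with a median of 0.12. Of the 14 tested regulators of p53, 3 were higher and 6 lower, with a median of -0.14. The excess was not particular to p53 targets. Of the 9 Atf4 stress genes 7 were higher and 0 lower in this difference, with a median of 0.48. Of the 12 desmosome and epithelial genes 8 were higher and 2 lower, with a median of 1.04. Over all tested genes 22.8% were higher and 21.7% lower.

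Of 12 targets of repair and metabolism, 5 rose and 2 fell at the end of the early pulse, and 5 rose at the end of the control pulse, with medians of 0.22 and 0.16. Over all tested genes 23.0% rose and 20.7% fell in the former and 31.1% rose in the latter, with medians of 0.017 and 0.013. Tigar, a regulator of glycolysis, rose in both, by 0.96 ± 0.057 and 0.49 ± 0.057 (adjusted p = 1.79e-10 and 7.46e-07). Ephx1, an epoxide hydrolase, rose by 1.57 ± 0.22 at the end of the early pulse (adjusted p = 1.48e-05). Ddit4, an mTORC1 inhibitor that also answers to hypoxia, was the most changed at the end of the control pulse, with a rise of 1.85 ± 0.090 (adjusted p = 5.62e-12), and early against control it was at -1.56 ± 0.089 at 72 h and -1.27 ± 0.087 at 96 h (adjusted p = 2.29e-10 and 7.71e-10). Sesn1, the paralog of Sesn2, fell by 0.42 ± 0.10 at the end of the early pulse (adjusted p = 0.0022), where Sesn2 rose.

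Of 9 tested targets of cell death, 3 rose at the end of the early pulse, by at most 0.31, and 4 rose and 3 fell at the end of the control pulse, with medians of 0.048 and 0.097. The shares of all tested genes were 23.0% higher at the former, and 31.1% higher and 30.3% lower at the latter. In the controls between 72 and 96 h 5 of the 9 fell and 2 rose, against 27.4% and 27.5% of all tested genes. Pmaip1, which encodes the BH3-only protein Noxa, fell by 0.95 ± 0.086 on the log2 scale (adjusted p = 3.76e-08), and its step differed between the arms by 1.25 ± 0.12 (adjusted p = 1.74e-07). Of 10 other Bcl2 family genes, 3 fell at the end of the early pulse, against 20.7% of all tested genes, with a median of -0.21, among them the BH3-only genes Bcl2l11 (Bim) with -1.14 ± 0.068 and Bmf with -1.29 ± 0.14 (adjusted p = 1.87e-10 and 4.97e-07). At the end of the control pulse 2 of these 10 rose and 5 fell, against 31.1% and 30.3% of all tested genes, with a median of -0.35. Bcl2l11 was also lower there, with -1.36 ± 0.069, while Bcl2, which opposes Bax, rose by 2.25 ± 0.20 (adjusted p = 9.00e-12 and 1.57e-08).

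**Figure D5:**
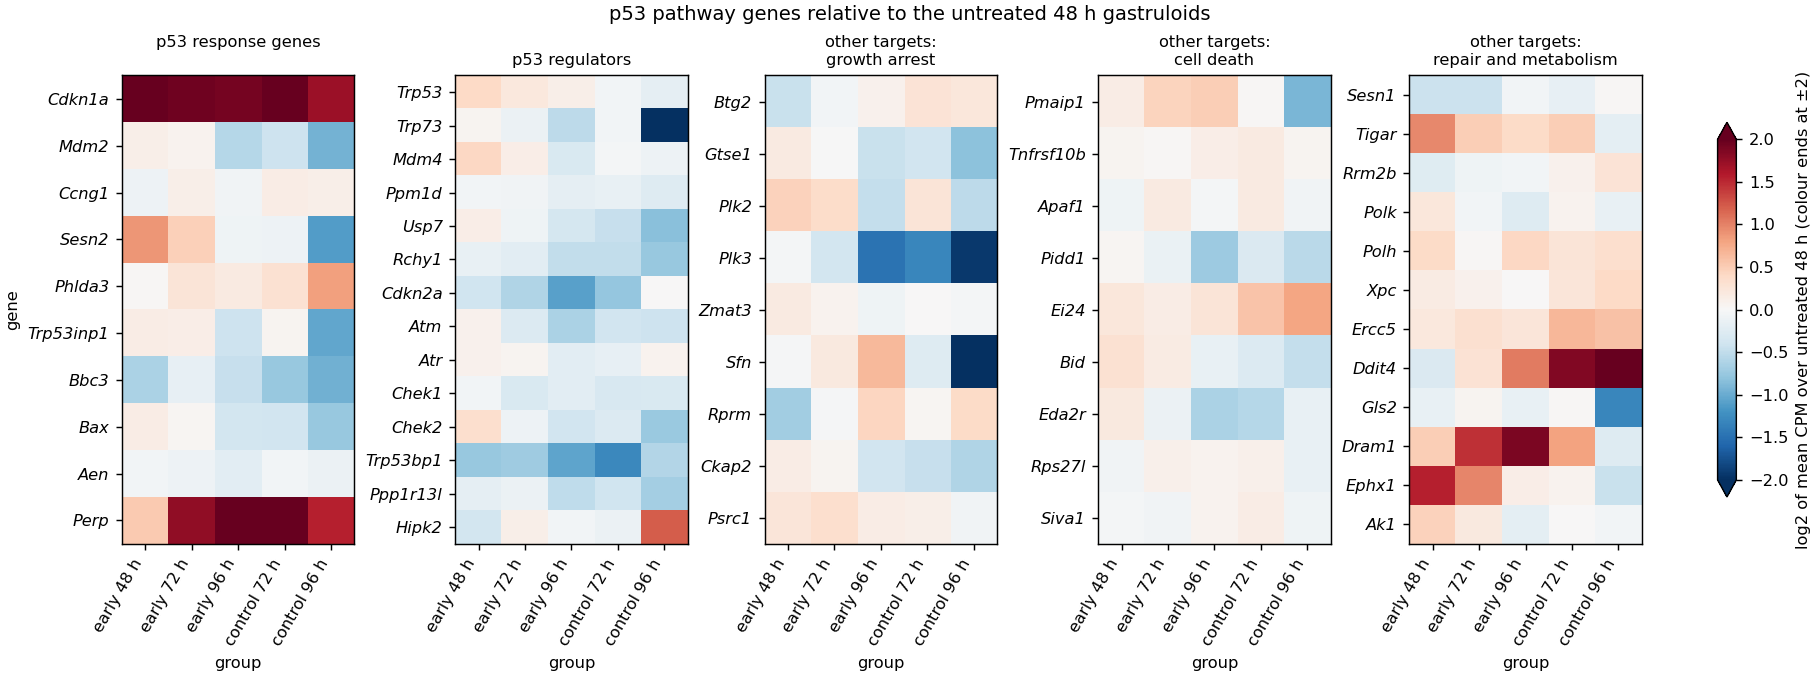
Colour shows log2 of the group mean CPM over that of untreated 48 h gastruloids, for the 10 genes, regulators of p53 and 3 lists of other targets (rows), in 5 groups (columns); colours end at ±2. Cdkn1a is at 2.20 in early gastruloids of 48 h and 2.96 in controls of 72 h, beyond the colour scale, and Mdm2 is at -0.95 in controls of 96 h.

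Across the 18 libraries the 10 genes fell into unlike courses, described here by Pearson correlations of log2 CPM over libraries that share groups and scaling. Mdm2 and Bax correlated at 0.97, Mdm2 and Trp53inp1 at 0.90, and Sesn2 and Bax at 0.90. Cdkn1a correlated with Mdm2 at -0.20, with Bax at -0.21 and with Bbc3 at -0.64, and most highly with Perp, at 0.73. Phlda3 was at -0.78 with Trp53inp1 and -0.77 with Bax. Trp53 mRNA correlated with Sesn2 at 0.89 and with Cdkn1a at 0.15.

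Outside the 10 genes, among tested genes with a mean of at least 5 CPM, the course most like that of Cdkn1a over the 18 libraries was that of Hs6st2, a heparan sulfate sulfotransferase, at 0.99, followed by Rai14 at 0.98. For Mdm2 it was Gtse1, itself a p53 target of the growth-arrest list, at 0.98, and for Bax it was Inpp5d at 0.99. Sesn2 was most like Bin2 at 0.98, Perp like Acad10 at 0.98, Trp53inp1 like Fig4 at 0.97, Bbc3 like Acsl4 at 0.96 and Phlda3 like Atp11a at 0.94. The closest genes to Aen and Ccng1, whose levels varied little, were Btaf1 at 0.87 and Tinf2 at 0.81.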

How the data were processed

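Polyadenylated RNA of 18 mouse gastruloid samples, 3 in each of 6 groups, was sequenced from a stranded ligation-based library kit. The authors deposited read counts per gene, not normalized, and a separate table of FPKM. Adapter trimming with cutadapt 4.0, alignment with STAR 2.7.8a, Cufflinks 2.2.1 and the mm10 build are named per the submitters' processing notes. The counting settings, strand included, were not given in the sources used here.

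Counts were fitted with edgeR 4.0.16 (R 4.3.3): expression filter by group (16041 of 55385 genes kept), TMM scaling, 1 quasi-likelihood model of 6 group means over the 18 libraries, 10 contrasts, and Benjamini-Hochberg adjustment over all kept genes, with calls under 0.05. The SE is the size of the log2 fold change divided by the square root of the F statistic. CPM used TMM-adjusted library sizes. FPKM as deposited served to compare levels between genes and, as log2(FPKM + 1) or log2(FPKM + 0.1) in limma 3.58.1, as an alternative, as did DESeq2 1.42.0. Also tried were scaling by DESeq2 size factors, leaving the filter out, a minimum of 1 CPM, the groups compared alone, a replicate block, each library left out in turn and the 3 control libraries numbered 3 left out. The edgeR step was first tested on simulated counts.

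The 10 genes and the other lists were chosen with earlier results of these data known. The genes named were the 10 members, Trp53, up to 4 genes of lowest adjusted p from each other list in a comparison described, and the 3 genes most like each member by Pearson correlation of log2 CPM among genes of at least 5 CPM on average. Pou5f1, T and Lum were named as markers of the sample, and Slc7a11 and Ddit3 after their values were seen, as the Atf4 genes not called. Promoters came from RefSeq (GRCm38.p6), which shares the coordinates of mm10. The labels name more than 1 library preparation code without tying any to a sample, so no batch term was fitted. Total counts give the depth, 14841728 to 24536538 per library.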

Additional observations from a re-analysis of the deposited data

Results flagged for a closer look

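The change over the day after the pulse differed between the arms, by the edgeR test of the difference itself, in 8 of the 10 genes, all higher. Over all tested genes 22.8% were called higher and 21.7% lower. The difference, early minus control on the log2 scale, was 1.00 ± 0.087 for Cdkn1a (adjusted p = 4.89e-08), 0.49 ± 0.071 for Mdm2 (adjusted p = 2.06e-05) and 0.25 ± 0.085 for Ccng1 (adjusted p = 0.0223). It was 0.62 ± 0.15 for Sesn2 (adjusted p = 0.00249), 1.08 ± 0.070 for Trp53inp1 (adjusted p = 1.38e-09) and 0.67 ± 0.10 for Bbc3 (adjusted p = 3.71e-05). Bax differed by 0.26 ± 0.065 (adjusted p = 0.00367) and Perp by 1.93 ± 0.22 (adjusted p = 1.08e-06). In the control arm Trp53inp1 and Mdm2 fell, while in the early arm they were at -0.014 ± 0.049 and -0.043 ± 0.049 and were not called. Cdkn1a and Sesn2 fell in both arms and by more in the controls. Perp fell in the controls and rose in the early arm. Bbc3 rose in the early arm and was at -0.20 ± 0.074 in the controls (adjusted p = 0.0287), a call lost without each of 4 libraries in turn and under other settings. The steps cover different ages, 72 to 96 h in the controls and 48 to 72 h in the early arm, so arm and age cannot be told apart.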

How the results depend on the processing

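The count of called genes among the 10 stayed within 1.5 times its value in the 10 comparisons under every alternative that changed the fit or left out the 3 control libraries numbered 3, except that 3 were called at the end of the early pulse on log2(FPKM + 1) and 3 in the early step from 48 to 72 h on both FPKM scales. Without single libraries the count ranged from 3 to 7, 6 to 6 and 8 to 10 between the arms at the 3 ages, 5 to 7 and 7 to 10 in the control steps, 5 to 5 and 5 to 6 in the early steps, 6 to 7 between pulse ends, 7 to 8 a day after them and 7 to 8 for the difference of the steps. The lowest value at 48 h came without control replicate 2 of 48 h. Without the 3 control libraries numbered 3, the counts were 8 at 48 h, 7 at 72 h and 8 at 96 h between the arms. On log2(FPKM + 1) the share of all calls that were higher moved from 52.7 to 41.6% at the end of the early pulse, from 48.7 to 70.1% and from 50.0 to 65.1% in the early steps and from 48.2 to 32.3% between pulse ends, and on log2(FPKM + 0.1) from 51.2 to 63.1% for the difference of the steps.

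Changes of sign fell on values that had not been called in the reported fit, except for Bax in the early step from 48 to 72 h, and the cause was not tested. In the order log2(FPKM + 0.1), log2(FPKM + 1), the log2 values turned to 0.071 and 0.069 for Aen between the arms at 96 h, 0.056 and 0.055 for Aen and 0.038 and 0.037 for Trp53 at the end of the control pulse, 0.029 and 0.029 for Cdkn1a in the early step to 96 h and 0.039 and 0.038 for Trp53 in the difference of the steps. In the early step to 72 h they were 0.066 and 0.065 for Mdm2, 0.095 and 0.093 for Trp53inp1, 0.0034 and 0.0034 for Bax and 0.090 and 0.089 for Aen, and between pulse ends -0.060 and -0.059 for Trp53inp1 and -0.033 and -0.030 for Bbc3. Trp53inp1 in the early step to 72 h was also at 0.0033 with no filter, 0.0082 with only the groups compared and from -0.044 to 0.026 without single libraries. Aen between pulse ends was at 0.013 with DESeq2 and 0.013 with its size factors. Phlda3 at the end of the early pulse, with 0.025 in the reported fit, was at -0.024 and -0.023 on FPKM, -0.027 without the 3 control libraries numbered 3, and from -0.036 to 0.070 without single libraries.

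A day after the pulses, Ccng1 was at -0.0018 in the reported fit. It was at 0.0018 with DESeq2, 0.0016 with its size factors, 0.00098 with the 1 CPM filter, 0.0089 with no filter, 0.012 with only the groups compared, 0.10 without the 3 control libraries numbered 3, where it was called (edgeR adjusted p = 0.0263), and from -0.055 to 0.099 without single libraries. Perp there was at -0.0059 without the same 3 and from -0.0044 to 0.43 without single libraries. Leaving out single libraries also gave Aen -0.030 to 0.087 a day after the pulses and -0.020 to 0.098 in the difference of the steps, and Ccng1 -0.13 to 0.026 in the control step to 96 h.

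Replicate numbers showed no consistent pairing of the samples: correlations of same-numbered deviations ran from -0.0595 to 0.158. Between the control groups they were all positive, from 0.0125 to 0.158. A factor shared by same-numbered control libraries alone was not tested. With the replicate number as a block, 6, 6 and 9 of the 10 were called between the arms at 48, 72 and 96 h, 7 and 8 in the control steps, 6 and 7 in the early steps, 7 between pulse ends, 7 a day after them and 8 for the difference of the steps, which are the counts without it. Under the block Ccng1 a day after the pulses was at 2.8e-05. With 3 libraries a group, Perp, the least abundant, had SEs of 0.14 or more, so small differences in it were not detectable.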
